A study of Mus musculus with 17 samples.

Results

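Skeletal muscle progenitor and myogenic genes were followed in whole mouse embryos carrying mutations of *Klf3*, a Krüppel-like transcription factor. The members are the 9 genes *Pax3*, *Pax7*, *Meox1*, *Myf5*, *Myf6*, *Myod1*, *Myog*, *Chrna1* and *Myh3*, taken by name from the probe sets annotated to 1 gene, out of 22180 genes with such a probe set. All 9 were measured, each is represented by the probe set with the highest mean over the arrays, and no filter on low values was used. Whole embryos collected at E12.5 each gave 1 RNA sample for 1 of 17 Affymetrix arrays. By genotype these were 4 WT (Klf3+/+), 4 Klf3 H275R/+, 3 Klf3 H275R/H275R, 2 Klf3 CH heterozygous and 4 Klf3 CH homozygous. These groups are called WT, H275R heterozygotes, H275R homozygotes, CH heterozygotes and CH homozygotes, and an array is named by its genotype and replicate number.

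H275R is a chemically induced missense change in a zinc finger of KLF3, carried in every cell. In the CH line a gene trap lies within an intron of *Klf3*. This line was derived from 1 embryonic stem cell line and has a mixed B6 and 129 background, so the CH allele and its background cannot be told apart in a comparison with the H275R arrays. The labels do not say which line the WT embryos came from, whether embryos shared a litter, or their sex. P-values therefore measure only the spread between these samples.

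In the embryo, skeletal muscle of the trunk and limbs comes from the somites. PAX3 and PAX7 mark the muscle progenitors of the dermomyotome, and both are also made in the dorsal neural tube and neural crest, while MEOX1 is a homeobox factor of the early somite. The basic helix-loop-helix factors MYF5, MYOD1 and MYF6 (MRF4) commit cells to the muscle fate, and myogenin, encoded by *Myog*, drives myoblasts to leave the cell cycle and differentiate. *Chrna1* (the alpha subunit of the muscle acetylcholine receptor) and *Myh3* (embryonic myosin heavy chain) are products of differentiated muscle cells. The myogenic factors pair with E proteins and bind DNA at the E-box, whose letters are CANNTG.

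Promoters of *Myog* and *Chrna1* are shown here because these genes moved together across the arrays and are textbook targets of the myogenic factors. The letters are the 250 bases before each gene's start, read 5′ to 3′ on the gene's strand from RefSeq (GRCm38.p6), with E-boxes in capitals.
Myog, chr1:134289754-134290003, + strand: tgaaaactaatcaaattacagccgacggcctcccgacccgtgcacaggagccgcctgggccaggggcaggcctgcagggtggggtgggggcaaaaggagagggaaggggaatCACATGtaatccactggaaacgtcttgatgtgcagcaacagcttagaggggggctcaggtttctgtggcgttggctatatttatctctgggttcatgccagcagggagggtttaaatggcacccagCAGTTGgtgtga
Chrna1, chr2:73580339-73580588, - strand: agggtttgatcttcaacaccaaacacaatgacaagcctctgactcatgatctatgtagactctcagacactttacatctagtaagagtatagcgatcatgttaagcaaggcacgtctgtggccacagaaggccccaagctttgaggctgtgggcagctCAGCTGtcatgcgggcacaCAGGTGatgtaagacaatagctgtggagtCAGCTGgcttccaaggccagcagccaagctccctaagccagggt
The *Myog* window held 2 E-boxes, beginning 138 and 12 bases before the start. The *Chrna1* window held 3, beginning 92, 73 and 44 bases before it, and 2 of these read CAGCTG. Promoters of 5 members were in the table: *Myh3* held 1 E-box, and *Pax7* and *Myf5* held 0 in this window. An E-box is a common short sequence, since 66.2% of 32851 promoters of this length held at least 1, 12.2% held 3 or more and 13.0% held CAGCTG (a letter string that also counts as CANNTG and reads the same on both strands). CACCC, the core of the element that Krüppel-like factors bind, was searched on both strands and was present 5 times in the *Pax7* window and 3 times in that of *Myog*, was not found in the other windows, and was held by 52.0% of all promoters. These matches describe the letters and are not evidence of binding.

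The deposited values are log2 expression values after robust multiarray average normalization, so a difference of 1 is a doubling. Array medians lay between 6.68 and 6.78. *Klf3* itself was 9.09 to 9.80 in the 13 arrays other than the CH homozygotes and 5.27 to 6.13 in the 4 CH homozygotes. Embryos of 1 labelled age differed in a measured index, the mean log2 value of 15 cartilage genes (called the cartilage mean). It was 7.88 to 8.00 in WT 4, CH heterozygote 1 and CH homozygotes 1 and 3, was 8.17 to 8.32 in WT 1, 2 and 3 and all 7 H275R arrays, and was 8.57 to 8.80 in CH heterozygote 2 and CH homozygotes 2 and 4. Embryonic globins ran the other way, with their lowest means, 8.72 and 8.85, in CH homozygotes 2 and 4. The index is no label, and no array was grouped by it in any test.

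Values of 5 of the 9 members moved with this index past the threshold of the test, where 7.14% of all probe sets passed with a slope above 0 and 5.89% below 0, and those of 4 did not. *Myh3*, *Chrna1* and *Myog* were low in the arrays with the lowest cartilage means, *Pax3* was high in them, and *Myf5*, *Myf6*, *Pax7* and *Meox1* had no slope past the threshold. Few members passed between genotypes. In each comparison with WT, 0 of 9 did (0% to 0.0588% of all probe sets did). *Meox1* was lower in CH homozygotes than in H275R homozygotes, where 0.164% of all probe sets passed. *Myf6* was higher in CH homozygotes than in H275R heterozygotes, where 0.951% passed. Both calls were lost at an adjusted p under 0.05 and in some fits that left out 1 array. Throughout, a gene passed at a Benjamini-Hochberg adjusted p under 0.1 over all 39137 probe sets. Lack of overlap between groups is described for members only, and its share over all probe sets was not counted.

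**Figure D1:**
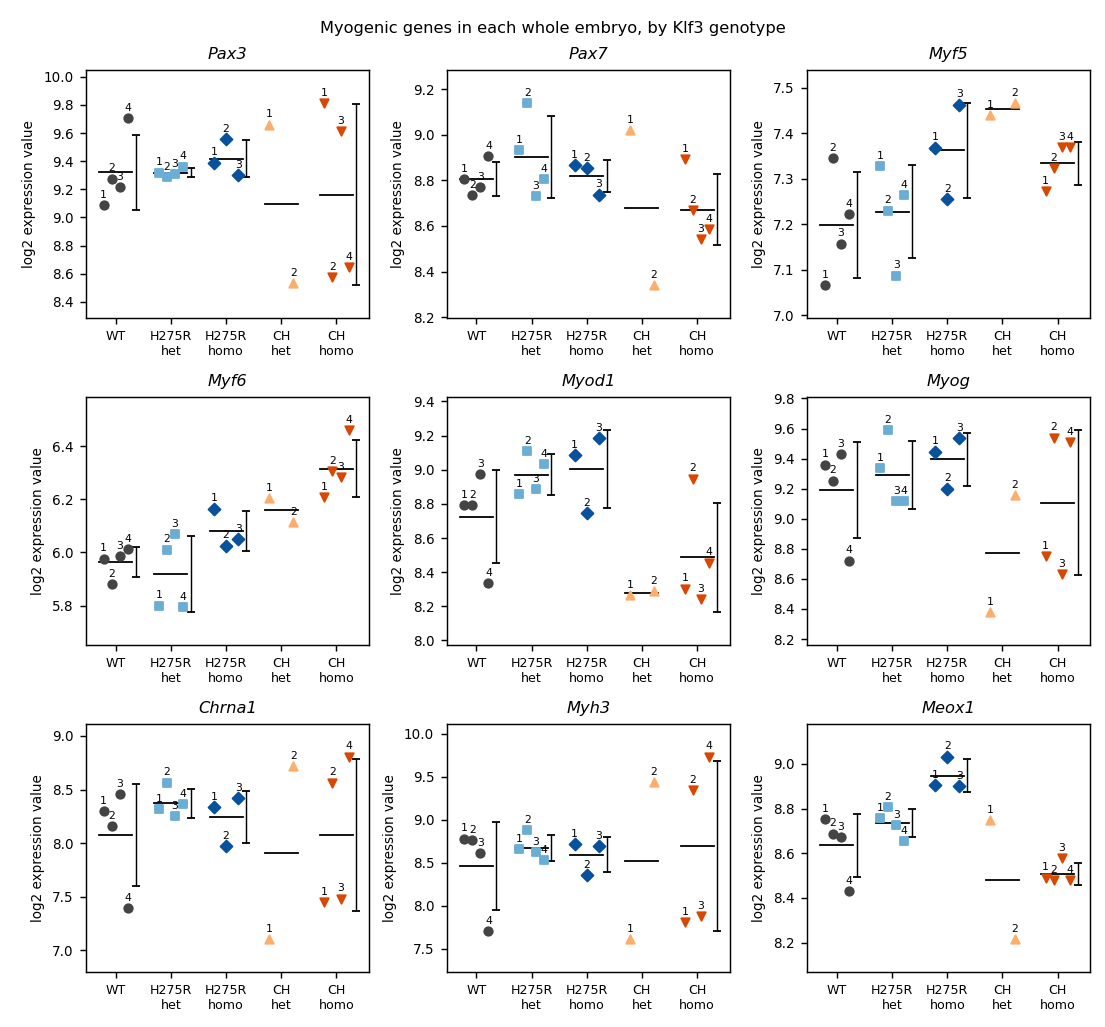
Log2 expression value (y axis) of each of the 9 genes in the 17 arrays, by Klf3 genotype (x axis). Points are arrays with their replicate numbers, horizontal lines are group means, and error bars are 1 SD in groups of 3 or 4. *Myh3* and *Chrna1* divide the CH arrays into high and low values, whereas the 3 H275R homozygotes lie above all other arrays for *Meox1*.

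*Pax3*, the progenitor factor, was 9.09, 9.28, 9.22 and 9.71 in the WT arrays 1 to 4. In H275R heterozygotes it was 9.32, 9.29, 9.31 and 9.36, and in H275R homozygotes 9.39, 9.56 and 9.30. CH heterozygotes had 9.66 and 8.53, and CH homozygotes had 9.82, 8.58, 9.61 and 8.64. Thus *Pax3* was steady in the H275R heterozygotes (SD 0.03) and separated into high and low arrays in the CH homozygotes (SD 0.64), whose range took in that of every other genotype apart from the lowest CH heterozygote. The 3 lowest values belonged to the 3 arrays with the highest cartilage means, and the 4 highest to the 4 arrays with the lowest.

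*Pax7*, its paralogue in muscle progenitors and later satellite cells, varied less. It was 8.81, 8.74, 8.77 and 8.91 in WT, 8.93, 9.14, 8.73 and 8.81 in H275R heterozygotes, and 8.87, 8.85 and 8.74 in H275R homozygotes. CH heterozygotes had 9.02 and 8.34, and CH homozygotes 8.89, 8.67, 8.54 and 8.59. All genotypes overlapped, and the lowest 4 values were all in CH arrays.

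*Meox1* was 8.75, 8.69, 8.67 and 8.43 in WT and 8.76, 8.81, 8.73 and 8.65 in H275R heterozygotes. It was 8.91, 9.03 and 8.90 in the H275R homozygotes, the 3 highest of the 17 arrays. CH heterozygotes had 8.75 and 8.22, and CH homozygotes 8.49, 8.48, 8.58 and 8.48, which was the narrowest spread of any genotype for this gene (SD 0.05). The H275R homozygotes did not overlap WT or the CH homozygotes.

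Among the determination factors, *Myf5* was the least variable member over the 17 arrays (SD 0.12). Its values were 7.07, 7.34, 7.16 and 7.22 in WT, 7.33, 7.23, 7.09 and 7.26 in H275R heterozygotes, and 7.37, 7.26 and 7.46 in H275R homozygotes. It was 7.44 and 7.47 in CH heterozygotes and 7.27, 7.32, 7.37 and 7.37 in CH homozygotes. The CH heterozygotes lay above every WT array, by a difference that did not pass over all probe sets.

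*Myf6*, which neighbours *Myf5* on chromosome 10, was 5.98, 5.88, 5.99 and 6.01 in WT, 5.80, 6.01, 6.07 and 5.79 in H275R heterozygotes, and 6.16, 6.03 and 6.05 in H275R homozygotes. CH heterozygotes had 6.20 and 6.11. The 4 CH homozygotes had 6.21, 6.31, 6.28 and 6.46, and were the 4 highest arrays. The mean of this probe set, 6.08, was below the median of every array.

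*Myod1* was 8.79, 8.79, 8.97 and 8.34 in WT, 8.86, 9.11, 8.88 and 9.03 in H275R heterozygotes, and 9.09, 8.75 and 9.18 in H275R homozygotes. It was 8.27 and 8.29 in CH heterozygotes and 8.30, 8.95, 8.24 and 8.46 in CH homozygotes. Apart from CH homozygote 2, every CH array was at 8.46 or below, and WT 4 was the only other array in that range. CH heterozygote 2 and CH homozygote 4 had high cartilage means yet low *Myod1*, unlike their *Myog*, *Chrna1* and *Myh3*.

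*Myog* was 9.36, 9.25, 9.43 and 8.72 in WT, 9.34, 9.59, 9.12 and 9.12 in H275R heterozygotes, and 9.45, 9.20 and 9.54 in H275R homozygotes. CH heterozygotes had 8.38 and 9.16, and CH homozygotes 8.75, 9.54, 8.63 and 9.51. The 4 arrays below 9 were WT 4, CH heterozygote 1 and CH homozygotes 1 and 3.

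Of the 2 products of differentiated muscle, *Chrna1* was 8.30, 8.16, 8.46 and 7.39 in WT, 8.32, 8.56, 8.25 and 8.36 in H275R heterozygotes, and 8.34, 7.97 and 8.42 in H275R homozygotes. It was 7.11 and 8.72 in CH heterozygotes and 7.45, 8.56, 7.48 and 8.81 in CH homozygotes. *Myh3* was 8.78, 8.76, 8.61 and 7.70 in WT, 8.66, 8.88, 8.62 and 8.53 in H275R heterozygotes, and 8.72, 8.36 and 8.70 in H275R homozygotes. In CH heterozygotes *Myh3* was 7.62 and 9.44, and in CH homozygotes 7.81, 9.34, 7.88 and 9.73. The same 4 arrays were lowest for both genes and for *Myog*, and the SD of *Myh3* over the 17 arrays, 0.60, was at the 99.0th percentile of all probe sets.

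The first question was whether these genes differ between mutant and WT embryos at this age. In H275R homozygotes against WT, 0 of 9 members passed, where 0.0128% of all probe sets passed by limma, and 1 of 9 had an unadjusted p under 0.05, against 5.06% of all. All 9 differences were above 0, with a median of 0.16 (−0.01 over all probe sets). The member nearest to the threshold was *Meox1*, at 8.95 ± 0.07 (SD, n = 3) against 8.63 ± 0.14 (n = 4), a difference of 0.31 (SE 0.079, 1.24-fold) with an unadjusted p of 0.00143 and an adjusted p of 0.582. *Myf6* also did not overlap WT, by a narrow gap (lowest value 6.03 against a highest of 6.01 in WT), with a difference of 0.12 (SE 0.085). The share of all probe sets without overlap was not counted, here or in the comparisons below. Since WT 4 had the lowest *Myh3*, *Chrna1*, *Myog*, *Myod1* and *Meox1* of its group, the differences were also taken without it: that of *Myh3* went from 0.13 to −0.13, that of *Chrna1* from 0.17 to −0.06 and that of *Meox1* from 0.31 to 0.24.

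For H275R heterozygotes, 0 of 9 members passed against WT, as did 0% of all probe sets, and 0 of 9 had an unadjusted p under 0.05 (3.87% of all probe sets). All members overlapped WT, and their differences ran from −0.05 for *Myf6* to 0.30 for *Chrna1*. The 95% interval for *Chrna1* was −0.33 to 0.92, so a near doubling was within it, while that for *Myf5* was −0.13 to 0.19. Each interval uses 1 spread per gene shared by all genotypes in the fit, so CH homozygotes enter it too. For *Chrna1* the SD was 0.71 in CH homozygotes, 0.47 in WT and 0.14 in H275R heterozygotes. Without WT 4, the difference of *Chrna1* went from 0.30 to 0.07 and that of *Myh3* from 0.21 to −0.05.

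**Figure D2:**
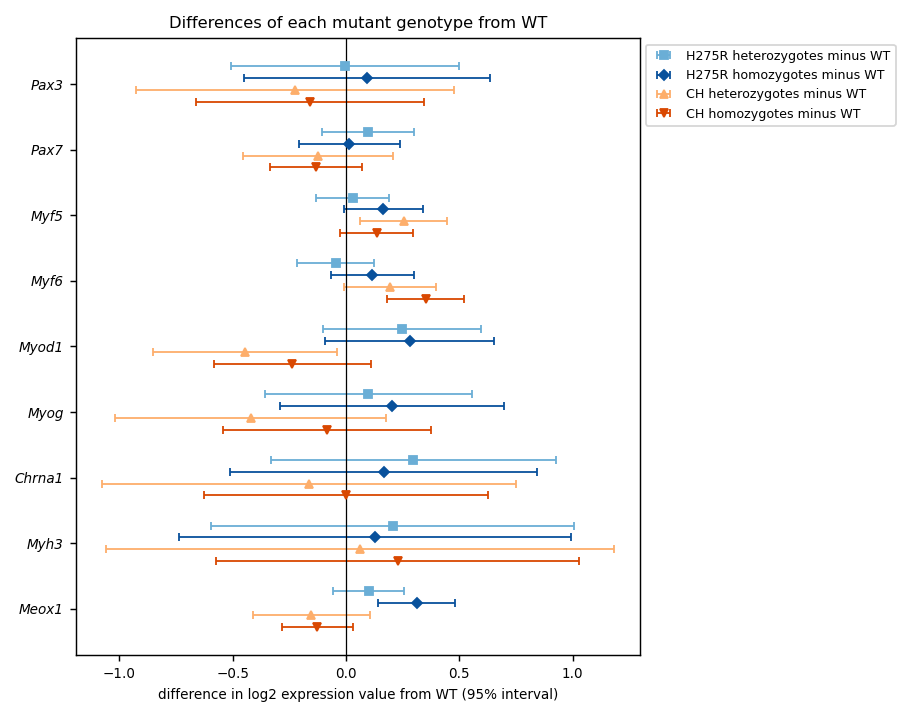
Difference in log2 expression value from WT (x axis) for each gene (y axis) in the 4 mutant genotypes, with 95% intervals from limma. Intervals are wide for *Myh3* and *Chrna1* and narrow for *Myf5*, *Myf6* and *Meox1*, and only *Meox1* in H275R homozygotes, *Myf6* in CH homozygotes, and *Myf5* and *Myod1* in CH heterozygotes have intervals that leave out 0, with 0 of these differences passing after adjustment.

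CH homozygotes, which have lost most *Klf3* transcript, also had 0 of 9 members past the threshold against WT, where 0.0588% of all probe sets passed, and 1 of 9 with an unadjusted p under 0.05 (8.95% of all). That member was *Myf6*, at 6.32 ± 0.11 against 5.96 ± 0.06 (n = 4 each), a difference of 0.35 (SE 0.079, 1.28-fold) without overlap and with an adjusted p of 0.204. *Myh3* differed by 0.23 with an interval of −0.57 to 1.03, *Chrna1* by 0.00 (−0.63 to 0.63) and *Pax3* by −0.16 (−0.66 to 0.34). Changes within these intervals remain possible. The intervals are not limits of detection, since that of *Myf6* left out 0 and *Myf6* did not pass. Without WT 4, *Myh3* differed by −0.03, *Chrna1* by −0.23 and *Pax3* by −0.03. This fit kept CH homozygotes 1 and 3, whose cartilage means were also low (8.00 and 7.95), so it left out a low array on the WT side only.

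The 2 kinds of *Klf3* homozygote were then compared directly. *Meox1* was lower in CH homozygotes (8.51 ± 0.05, n = 4) than in H275R homozygotes (8.95 ± 0.07, n = 3), by −0.44 (SE 0.079, 95% interval −0.61 to −0.27), or 0.737-fold, with an adjusted p of 0.0723. It was the 1 member of 9 to pass, where 0.164% of all probe sets did. *Myod1* had a difference of −0.52 (adjusted p = 0.259) and *Myf6* one of 0.24 without overlap (adjusted p = 0.283). The *Meox1* call did not hold when any of the 3 H275R homozygotes was left out (adjusted p = 0.188, 0.233 and 0.110), nor without CH homozygote 2, 3 or 4, H275R heterozygote 1 or WT 3 (adjusted p = 0.113, 0.118, 0.139, 0.104 and 0.102). Over 28 alternatives the difference stayed between −0.48 and −0.40 and the adjusted p ran from 0.0167 to 0.238.

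Against H275R heterozygotes, *Myf6* was higher in CH homozygotes (6.32 ± 0.11 against 5.92 ± 0.14, n = 4 each), by 0.40 (SE 0.079, 95% interval 0.23 to 0.57), or 1.32-fold, with an adjusted p of 0.0659. It was again 1 member of 9, where 0.951% of all probe sets passed. *Meox1* did not overlap between these groups either, with a difference of −0.23 (adjusted p = 0.178), and *Myod1* had one of −0.48 (adjusted p = 0.197). The *Myf6* call did not hold without H275R heterozygote 1, 2 or 4 or CH homozygote 3 or 4 (adjusted p = 0.169, 0.141, 0.146, 0.123 and 0.150), and without CH homozygote 2 *Myod1* passed beside it (−0.64, adjusted p = 0.0889). With the cartilage mean as a covariate, *Myod1* (−0.57, adjusted p = 0.0399) and *Chrna1* (−0.49, adjusted p = 0.0865) passed as lower in CH homozygotes beside *Myf6*, and *Myod1* passed beside *Meox1* against H275R homozygotes (−0.61, adjusted p = 0.0666), where 4.68% and 1.47% of all probe sets passed. With only probe sets above the median level, which leaves out *Myf6*, the 1 member past the threshold against H275R heterozygotes was *Meox1* (−0.23, adjusted p = 0.0932), where 6.57% of the probe sets tested passed.

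CH heterozygotes, only 2 arrays that lie far apart on the cartilage mean, had 0 of 9 members past the threshold against WT, where 0.00511% of all probe sets passed. *Myf5* (difference 0.26, unadjusted p = 0.0124) and *Myf6* (0.20) lay above all WT arrays, and *Myod1* (−0.45, unadjusted p = 0.0343) lay below them, with adjusted p from 0.744 to 0.852. The unadjusted p was under 0.05 for 2 of 9 members and 5.94% of all probe sets. Groups lie apart more easily with only 2 arrays in 1 of them, and the share of all probe sets that did so was not counted. Without WT 4, *Myh3* went from 0.06 to −0.19 and *Chrna1* from −0.16 to −0.39, with CH heterozygote 1, also low on the cartilage mean (7.88), kept. CH homozygotes against CH heterozygotes gave 0 of 9 members and 0.00511% of all probe sets, and 0 of 9 members had an unadjusted p under 0.05, with *Myf6* higher (0.16) and *Myf5* lower (−0.12) without overlap and adjusted p of 0.947 and 0.962. These comparisons share the WT or CH homozygote arrays with those above and are not independent of them.

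The second question was how the members varied with the cartilage mean, taken as a measured index of embryo maturity. Its 15 genes were *Col2a1*, *Acan*, *Sox9*, *Sox5*, *Sox6*, *Col9a1*, *Col9a2*, *Col9a3*, *Col11a1*, *Col11a2*, *Matn1*, *Comp*, *Hapln1*, *Ihh* and *Col10a1*. They did not move alike. Against this mean, which includes them, 11 passed with a slope above 0, led by *Acan* (3.46) and *Matn1* (2.95). *Sox9* had a slope of −0.57 and did not pass. In a limma fit with 1 mean per genotype and the cartilage mean as a covariate over all 17 arrays, 4 of 9 members had a slope above 0 and 1 of 9 below 0 that passed, where 7.14% and 5.89% of all probe sets did. *Myh3* had the steepest slope, 2.37 log2 units per log2 unit of the index (SE 0.19, adjusted p = 5.65e-06), or 5.17-fold per unit. *Chrna1* followed with 1.87 (SE 0.20, adjusted p = 4.83e-05), *Myog* with 1.19 (SE 0.15, adjusted p = 0.000138) and *Myod1* with 0.56 (SE 0.19, adjusted p = 0.0764). *Pax3* had a slope of −1.50 (SE 0.10, adjusted p = 2.02e-06). *Pax7* (−0.33, adjusted p = 0.296), *Meox1* (−0.17, 0.560), *Myf6* (0.06, 0.844) and *Myf5* (0.02, 0.948) did not pass, and the 95% interval for *Myf5* was −0.21 to 0.25.

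**Figure D3:**
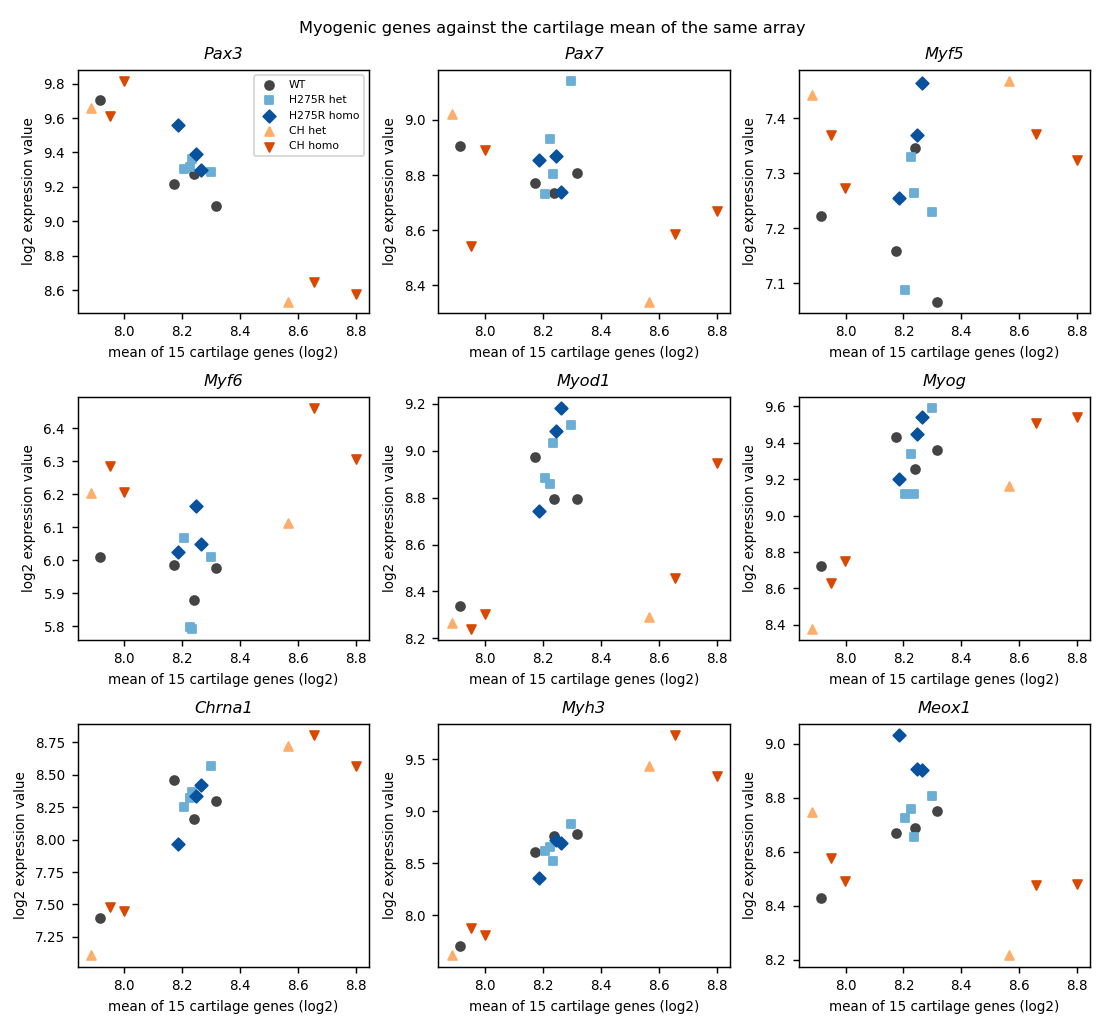
Log2 expression value of each gene (y axis) against the mean of the 15 cartilage genes on the same array (x axis, log2), with 1 point per array, shaped and coloured by genotype. The arrays lie in 3 separate ranges of the index, and across them *Myh3*, *Chrna1* and *Myog* are lowest at the left and *Pax3* is lowest at the right, while *Myf5* and *Myf6* show no slope past the threshold.

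These slopes rest on 7 arrays, the 6 CH arrays and WT 4, because the other 10 span only 8.17 to 8.32 on the index. Within the 6 CH arrays alone, *Pax3* (−1.50, adjusted p = 0.0133), *Myog* (1.11, 0.0143), *Myh3* (2.30, 0.0188) and *Chrna1* (1.79, 0.0243) passed and *Myod1* (0.45, 0.296) did not, where 4.12% of all probe sets passed above 0 and 1.91% below. These arrays lie at 7.88 to 8.00 or at 8.57 to 8.80 on the index, with none between. Their slope is thus a contrast of low with high arrays, and the labels do not say whether these sets were litters. Among the 11 WT and H275R arrays, *Myh3* (2.95, adjusted p = 0.0419) and *Pax3* (−1.49, 0.0811) passed, and *Chrna1* (2.51, 0.106), *Myog* (1.89, 0.155) and *Myod1* (1.47, 0.245) did not, where 0.432% of all probe sets passed above 0 and 0.146% below. Without the CH arrays and WT 4, 0 of 9 members and 0 probe sets passed by limma, and 1 of 9 had an unadjusted p under 0.05 (*Myh3*, slope 2.32, unadjusted p = 0.0209), against 4.64% of all probe sets, while *Pax3* had a slope of −1.18 (SE 0.67). *Myod1* was the least firm of the calls, being lost without WT 1, WT 4 or CH homozygote 1, 2 or 3, and with the globin mean as the index (adjusted p = 0.109), whereas *Pax3*, *Myog*, *Chrna1* and *Myh3* passed in each fit that left out 1 array. Of the fits run, *Pax7* passed in the one without CH homozygote 3 (−0.53, adjusted p = 0.0813). In whole embryos, fewer cells of a type and less RNA per cell cannot be told apart.

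*Pax3* is also made outside muscle, and markers of the dorsal neural tube and neural crest moved with it. Of 12 such genes, 9 had a slope below 0 that passed and 0 above, where 5.89% and 7.14% of all probe sets did. Their median was −0.70 against −0.05 over all probe sets. *Olig3* (−1.82) and *Atoh1* (−1.64), factors of dorsal neural progenitors, were steepest. The mean of the 12 was 7.43 to 7.55 in the 3 arrays with the lowest *Pax3* and 7.92 to 8.19 in the other 14. Their part in the *Pax3* result was not tested. Heart genes went both ways: of 8, 1 passed above (*Tnnt2*, 0.83) and 3 below (*Myl7*, *Tbx20* and *Gata4*), and their mean ranged only from 8.59 to 8.99 over the arrays. In smooth muscle genes 3 of 5 passed above, led by *Myh11* (1.22).

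Genes around the members were read from 6 lists of the pathway. For each list the share of all probe sets with a slope past the threshold was 7.14% above 0 and 5.89% below. Among 12 measured dermomyotome and progenitor regulators, 4 passed with a slope below 0, namely *Tcf15* (−0.99), the somite factor paraxis, *Six4* (−0.66), *Tbx1* (−0.55) and *Eya1* (−0.27), and 2 above, *Meox2* (0.47) and *Msc* (0.42). The median was −0.07. *Lbx1*, a factor of migrating limb muscle precursors, had −0.17 and did not pass. Of 12 inhibitors of myogenesis, 5 passed below 0: *Twist1* (−0.69), *Hey1* (−0.65), *Id3* (−0.52), *Hes1* (−0.47) and *Id2* (−0.36). The 1 that passed above was *Mstn* (0.96), which encodes myostatin, made by muscle cells themselves. The median of the inhibitors was −0.36.

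Partners of the myogenic factors went both ways. *Mef2c* (1.33), which encodes a cofactor of myogenin, and *Smyd1* (0.66), a muscle methyltransferase, passed above 0, and the E protein genes *Tcf3* (−0.45) and *Tcf12* (−0.34) passed below, out of 7 measured. Of the acetylcholine receptor and neuromuscular junction genes 5 of 9 passed, all above 0: *Musk* (1.49), the kinase that organises the synapse, the receptor subunits *Chrnb1* (1.40), *Chrng* (1.17) and *Chrnd* (0.95), and *Rapsn* (0.69), which anchors the receptor. *Chrne*, the subunit of the adult receptor, had 0.05 and did not pass.

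Contractile genes gave the most uniform picture, with 20 of 21 above 0 past the threshold and a median slope of 0.95. *Neb* (2.11, nebulin), *Mylpf* (2.01, the fast regulatory light chain), *Actn2* (1.98) and *Myh8* (1.86, perinatal myosin heavy chain) were steepest, and *Myh7* (0.37, adjusted p = 0.174), the slow myosin also made in the heart, was the 1 that did not pass. Of 6 adhesion and fusion genes, *Mymk* (2.12), whose product myomaker fuses myoblasts, *Cdh15* (0.59) and *Itga7* (0.26) passed above and *Jam2* (−0.72) below. In the comparisons between genotypes, 0 genes of these 6 lists passed, where 0% to 0.951% of all probe sets did, so a count of 0 is near that share.

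**Figure D4:**
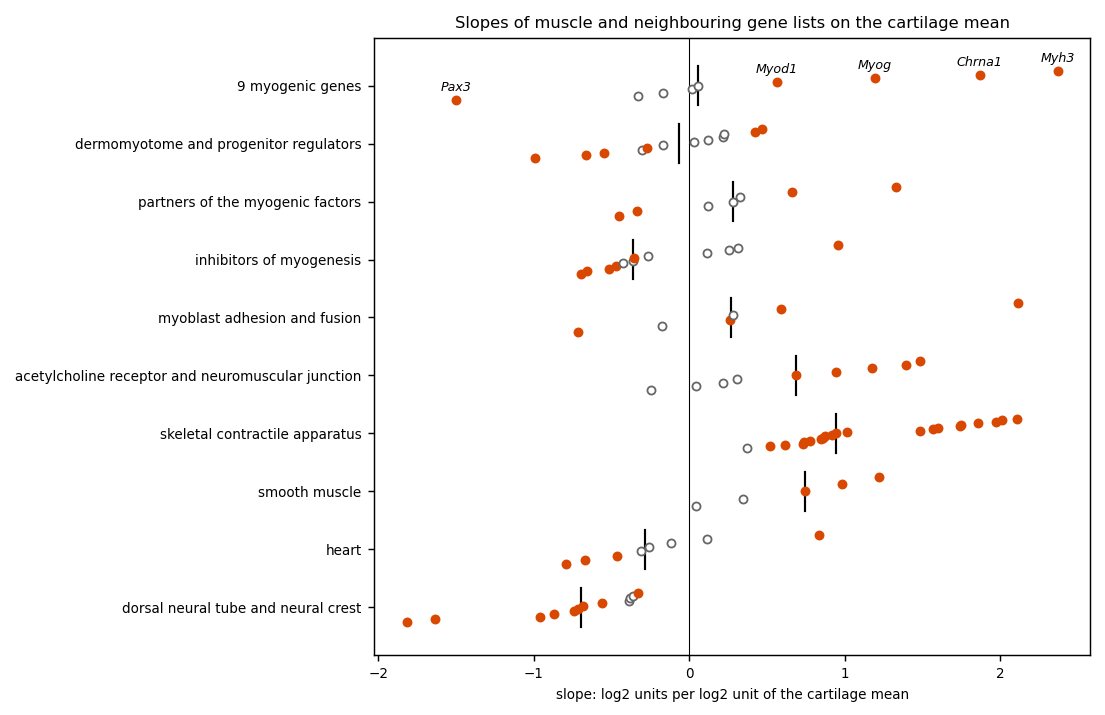
Slope on the cartilage mean (x axis, log2 units per log2 unit) of each measured gene in the 9 members, 6 pathway lists and 3 marker lists (y axis). Filled points passed at an adjusted p under 0.1, open points did not, and vertical bars are list medians. Contractile genes lie almost wholly to the right, the dorsal neural tube and neural crest genes to the left, and the 9 members on both sides.

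Over the 17 arrays the closest pairs of members were among *Myog*, *Chrna1* and *Myh3*. The Pearson correlation was 0.94 for *Chrna1* with *Myh3*, 0.91 for *Myog* with *Chrna1*, 0.81 for *Myog* with *Myh3* and 0.77 for *Myod1* with *Myog*. *Pax3* correlated at −0.93 with *Myh3* and at 0.61 with *Pax7*, and *Myod1* also at 0.61 with *Meox1*. The determination factors did not run together, with 0.33 for *Myf5* with *Myf6*, −0.25 for *Myf5* with *Myod1* and −0.45 for *Myf6* with *Myod1*. The correlations describe arrays that share the same 3 ranges of the cartilage mean, and are given with no test. Of all genes with a probe set of their own, those most like *Chrna1* were *Myl1* (0.975), *Ablim3* (0.971) and *Casq2* (0.971), of which *Myl1* and *Casq2* encode a myosin light chain and a calcium store protein of muscle. *Myh3* was most like *Thbs2* (0.986), *Agtr2* (0.986) and *Cnmd* (0.984), the last being the cartilage gene for chondromodulin. *Myog* was most like *Tgfb3* (0.965), *Scamp5* (0.960) and *Copz2* (0.958), and *Myod1* like *Plppr2* (0.963), *Rusc1* (0.952) and *Mfap2* (0.947).

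*Pax3* was most like *Plch1* (0.981), *Mecom* (0.969) and *H2az2* (0.968), and *Pax7* like *Maz* (0.918), *Mta1* (0.910) and *Cntn2* (0.893). Likeness was lower for the members without a slope past the threshold: the nearest genes were *Fnta* (0.893), *Sdad1* (0.887) and *Slc30a9* (0.881) for *Myf6*, *H4c17* (0.915), *Lipg* (0.894) and *Kif13a* (0.880) for *Meox1*, and *Man2c1* (0.776), *Olfr1134* (0.765) and *Eif4a1* (0.750) for *Myf5*. For *Myf5*, the least variable member, no gene passed 0.776.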

How the data were processed

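Per the labels, the authors' arrays were normalized by RMA (robust multiarray average) in Partek, and the deposited table gives log2 values. The paper names a false discovery rate of 0.1 and no test for the arrays. The build behind the annotation was not stated in the labels, and 0 columns were left without a sample. Genes were named from the platform annotation: of 39137 probe sets, 23521 had 1 symbol, 1820 several and 13796 were not listed. Values were used as deposited. Linear models (lmFit, eBayes) were fitted in limma 3.58.1 under R 4.3.3. They held a mean for every genotype, over 15 arrays, or over 17 where CH heterozygotes or the slope were concerned. P-values were adjusted over all probe sets. The fit was tested on simulated data. The number of arrays limits the precision.

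The members, the gene lists and the tests were chosen with earlier results of these data known. Named are all 9 members, genes of the lists that passed or had the largest differences, and the 3 genes most like each member. Of 118 other names listed, 110 were measured under 1 symbol, and some of the rest are older names of listed genes. Alternatives were the arrays fitted, the replicate number as a block, variance models, array weights, the Student test of the methods, thresholds, filters, scaling, the index and each array left out. The fits without the 6 CH arrays and WT 4 and without genotype means were added after seeing the data.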

Additional observations from a re-analysis of the deposited data

Results flagged for a closer look

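*Myh3* in WT 4 stood apart from its group, at 7.70 against 8.61 to 8.78 in the other 3 WT arrays (gap over range 0.840). WT 4 also had the lowest cartilage mean of the WT arrays, 7.91. *Meox1* in CH homozygote 3 stood apart at 8.58 against 8.48 to 8.49 in the other 3 (gap over range 0.881), a distance of less than the SD of the same gene in WT. Of 27 gene and genotype combinations examined, 2 were marked in this way, and chance marks about 1 in 20 groups.

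*Meox1* differed by −0.44 between the 2 homozygous mutants (CH minus H275R) in the direct limma test (adjusted p = 0.0723). Against WT the difference was 0.31 in H275R homozygotes (adjusted p = 0.582) and −0.13 in CH homozygotes (adjusted p = 0.646), and neither passed. CH homozygotes differed from CH heterozygotes by 0.02 (adjusted p = 0.996). The CH allele and its background cannot be told apart in the direct test.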

How the results depend on the processing

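No member passed against WT, or between CH homozygotes and CH heterozygotes, under any alternative run. Of CH homozygotes against H275R homozygotes, 0 members passed with only those 2 groups, all 17 arrays, the replicate block, the methods' Student test or an adjusted p under 0.05, 2 passed with the cartilage mean as covariate, and 0 to 1 with each array left out. Against H275R heterozygotes, 0 passed with only those groups, the Student test or an adjusted p under 0.05, 3 with the cartilage mean as covariate and 0 to 2 with each array left out. Members with a slope past the threshold numbered 2 in the 11 WT and H275R arrays, 0 without the 6 CH arrays and WT 4, and 4 to 5 with each array left out. Cartilage mean and members come from the same arrays. The cause of these changes was not tested. A filter at the median level drops *Myf6*, and *Meox1* then passes against H275R heterozygotes (−0.23, adjusted p = 0.0932).

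Over the alternatives, probe sets passing numbered 0 to 8 for H275R homozygotes and 0 to 1 for H275R heterozygotes against WT, 1 to 129 for CH homozygotes against WT, 0 to 576 and 21 to 1831 against H275R homozygotes and heterozygotes, 0 to 36 for CH heterozygotes against WT, 0 to 33 between the CH genotypes, and 0 to 5300 for the slope. Deviations of arrays with the same replicate number had a median correlation of 0.01 (29 pairs, 8 over 0.1, highest 0.43). Those with different numbers had one of 0.003 (85 pairs, 20 over 0.1, highest 0.47). Most of these pairs join different lines, so the medians cannot tell whether the numbers pair samples within a line. With the replicate block, *Meox1* had −0.40 (adjusted p = 0.112) and *Myf6* 0.40 (adjusted p = 0.0735), and 5 members had a slope past the threshold.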
